A study of Mus musculus with 27 samples.

Results

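Kinesins are motor proteins that use ATP to step along microtubules. Some cut down or cross-link the microtubules of the mitotic spindle, move chromosomes and build the midzone at which a dividing cell is pinched apart, whereas others carry vesicles, mitochondria and other cargo between divisions. Erythroid progenitors divide quickly and stop dividing as they mature, and spindle motors are among the genes that cycling cells transcribe late in the cell cycle. The kinesin genes described here are the rows of 5 RNA-Seq tables whose symbol begins with Kif or Kifc and a digit. In all, 41 of 20602 gene rows met this rule, and 37 of them are listed in all 5 tables. By their known roles, 13 were grouped as mitotic, 17 as transport and 11 as other kinesins (ciliary or atypical members, a spindle depolymerase with other functions and the *Kif4* pseudogene *Kif4-ps*).

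All libraries came from mouse erythroleukaemia (MEL) cells, a leukaemic line used as a model of erythroid progenitors. The study asked how the corepressors ETO2 (encoded by *Cbfa2t3*) and IRF2BP2 and their partners LSD1 (encoded by *Kdm1a*) and GFI1B hold erythroid genes in check. The libraries were 2 Eto2 WT with 2 KD-sh2 and 2 KD-sh3, which carry different hairpins against *Cbfa2t3*, 2 Irf2bp2 WT with 2 KD-sh1, 1 Lsd1 WT with 2 Lsd1 KD, 2 Gfi1b WT with 2 Gfi1b KD, and 2 MEL non-induced with 2 MEL induced to differentiate. The WT libraries, per the study's methods, received a non-targeting shRNA (short hairpin RNA, delivered by lentivirus) or, in the *Gfi1b* table, a non-targeting siRNA. *Irf2bp2* was targeted with 1 hairpin, so that its effects cannot be told apart from those particular to that hairpin. The methods call the samples of a group biological replicates, and the labels number them without naming a culture. A second kind of file lists ETO2 and IRF2BP2 chromatin immunoprecipitation (ChIP-Seq) sites. The IRF2BP2 sites rest on 1 library, and the ETO2 data, per the study's methods, were taken from an earlier data set.

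The 13 libraries of the *Cbfa2t3*, *Irf2bp2* and *Kdm1a* tables held 44519414 to 57684583 counted reads, and the 8 libraries of the *Gfi1b* and differentiation tables held 9929311 to 19623105. A floor of 3 counts was thus worth up to 0.0676 CPM (read counts relative to library size, on the scale of edgeR) in the first and up to 0.302 CPM in the second. The summed level of 8 erythroid markers was 1194 to 4307 CPM in the 21 libraries, and megakaryocyte markers summed to 172.3 to 1287 CPM. Fibroblast markers summed to 2.10 to 44.3 CPM and macrophage markers to 0.812 to 4.13 CPM, while the T cell, B cell and granulocyte lists each stayed at or under 1.85 CPM. The targeted gene fell by 1.21 on the log2 scale in *Cbfa2t3* KD (adjusted p = 0.00954, edgeR). *Irf2bp2* differed by -0.33 in its KD, short of the fold limit used here (adjusted p = 0.00266, edgeR), and *Kdm1a* measured 151.6 CPM without and 16.9 and 16.3 CPM with its hairpin. In the *Gfi1b* table, *Gfi1b* was at 122.3 and 145.0 CPM in the controls, at 76.5 CPM in the library labelled KD replicate 2 and at 215.8 CPM in the library labelled KD replicate 1, which goes against its label. That library also held 923.5 CPM of *Alas2*, the erythroid enzyme that starts haem synthesis, against 8.36 and 13.1 CPM in the controls and 20.4 CPM in the library labelled KD replicate 2. Results of that table are therefore given with and without each of these libraries. The study's methods name different siRNAs against *Gfi1b*, and the labels do not say which of them each library received.

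Mitotic kinesins were the more abundant class in MEL cells. Levels between genes were compared on the authors' RPKM scale, which divides by gene length, over the 9 control libraries, and no test was made between tables. In the mitotic class, 12 of 13 genes had a median above 10 RPKM, against 5 of 17 transport and 1 of 11 other kinesins. The median over the genes of a class was 27.6 RPKM for the mitotic and 3.73 RPKM for the transport class.

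*Kif20a*, which brings the chromosomal passenger complex to the spindle midzone, was the highest, with a median of 66.5 RPKM and a range of 55.2 to 73.4 RPKM over the 9 controls. *Kif22*, a chromosome-arm motor, followed at 51.4 RPKM (43.0 to 58.2) and *Kif11*, which pushes the spindle poles apart, at 42.5 RPKM (35.9 to 59.9). The ranges of these neighbours overlapped. A middle group with overlapping ranges held *Kifc1*, a motor that moves towards microtubule minus ends and draws poles together (35.7 RPKM), its close relative *Kifc5b* (31.1 RPKM), *Kif15*, which stabilizes bipolar spindles alongside *Kif11* (28.6 RPKM), *Kif2c*, which depolymerizes wrongly attached microtubules (27.6 RPKM), *Kif20b*, a cytokinesis motor (26.3 RPKM), and *Kif23* (23.0 RPKM). *Kif23* encodes the motor of centralspindlin, the complex that marks where the cell will divide. *Kif18b* (20.8 RPKM), *Kif4* (19.3 RPKM) and *Kif14* (14.9 RPKM) came next. *Kif18a*, which shortens microtubules at kinetochores, stood below all of them at 5.87 RPKM (4.02 to 8.06), and its range did not overlap that of *Kif14* (13.9 to 21.6).

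Among transport kinesins, *Kif5b*, the ubiquitous heavy chain of conventional kinesin (kinesin-1), was highest at 30.0 RPKM (25.8 to 43.6). *Kif21b*, a motor that also slows microtubule growth, was at 16.5 RPKM (12.4 to 25.4) and *Kifc3*, a minus-end motor, at 12.8 RPKM (9.24 to 17.6), so that their ranges overlapped with each other but not with that of *Kif5b*. The kinesin-2 subunits *Kif3a* and *Kif3b* were at 6.51 and 12.4 RPKM. *Kif5a*, *Kif5c* and *Kif1a*, motors best known from axons, were low. *Kif5a* had a median of 0.252 RPKM, from 4 to 106 counts per control, and passed the filter on low counts in all 5 tables. *Kif5c* had a median of 0.0346 RPKM, from 0 to 21 counts, and *Kif1a* of 0.00218 RPKM, from 0 to 3 counts. In the third class, *Kif2a*, a spindle and axon depolymerase, was at 43.8 RPKM, *Kif7*, a Hedgehog signalling regulator, at 8.16 RPKM, and 7 of the 11 genes were under 1 RPKM.

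**Figure D1:**
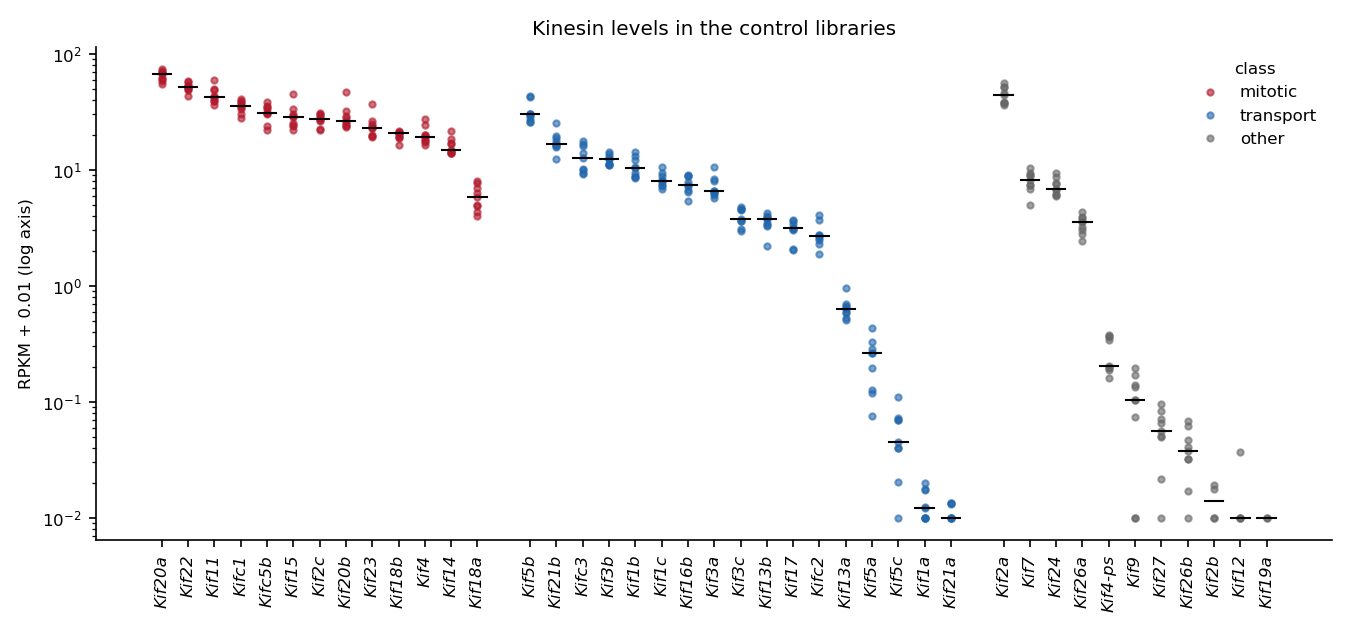
RPKM (plus 0.01, log axis) of each kinesin gene in the control libraries, with 1 point per library and a bar at the median; colours mark the 3 classes. The 12 mitotic kinesins above 10 RPKM run from 14.9 to 66.5 RPKM, while 5 of the 17 transport kinesins lie under 1 RPKM.

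Counts of near-identical copies cannot be separated with certainty. In the annotated longest transcripts, 54.8% of the 36-base words of *Kifc1* also occur in *Kifc5b* and 49.0% of those of *Kifc5b* in *Kifc1*. The *Kifc5b* count was 88.5 to 107% of the *Kifc1* count in the 21 libraries, so these rows may share reads and are not 2 independent results. The *Kif4-ps* count was 0.295 to 1.63% of the *Kif4* count, and the sequence shared by this pair was not measured here.

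The promoters of the mitotic kinesins shared a sequence feature that the rule did not use. The cell cycle genes homology region (CHR), whose core is TTTGAA, is bound in cycling cells by the MuvB complex with B-MYB and FOXM1 and gives late cell cycle expression, often beside CCAAT boxes bound by NF-Y. Windows from 250 bases before to 50 bases after the transcription start were taken from RefSeq (GRCm38.p6), in which 32 of the 41 genes were matched. The 9 without a window include *Kif20a*, the highest mitotic kinesin, and *Kif5b*, *Kif21b* and *Kifc3*, the highest transport kinesins. Both strands were searched for TTTGAA and CCAAT. The core TTTGAA occurred in 11 of 12 mitotic windows (91.7%), the exception being *Kif18a*, against 1 of 13 transport windows (7.69%), 2 of 11 other kinesin windows (18.2%) and 17.9% of all 32851 windows. CCAAT occurred in 8 of 12 mitotic windows (66.7%), 4 of 13 transport windows (30.8%), 4 of 11 other kinesin windows (36.4%) and 37.4% of all windows. Both were present in 66.7% of mitotic windows, in 0 of 13 transport windows, in 2 of 11 other kinesin windows (18.2%) and in 6.95% of all. In the 11 mitotic windows the nearest TTTGAA began at a median of 1 base after the start, and in 9 of them within 50 bases of it. A match is a description of the window and not a measured binding event.

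**Figure D2:**
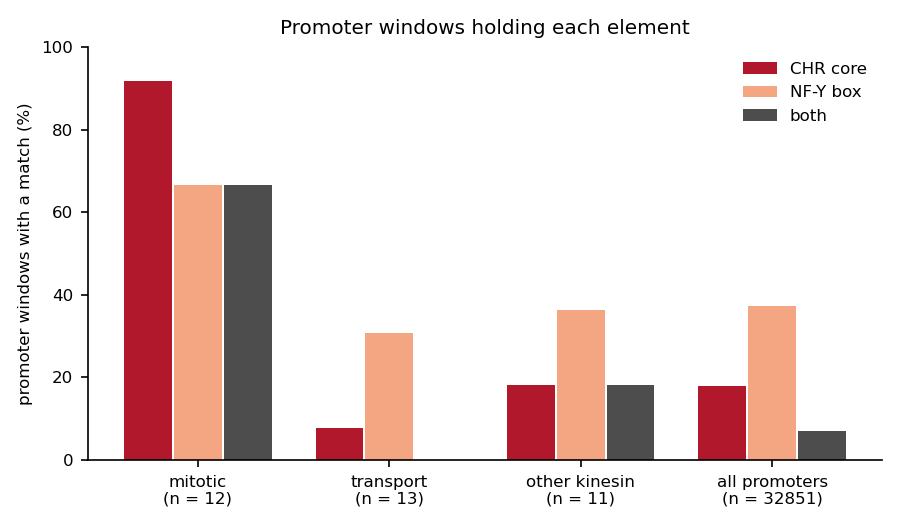
Share of promoter windows (%) that hold the CHR core TTTGAA, the NF-Y box CCAAT, or both, for the mitotic, transport and other kinesins and for all windows of the table. The CHR core is in 91.7% of mitotic windows and in 17.9% of all windows.

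The windows printed are those of the 4 mitotic kinesins that rose in *Irf2bp2* KD and the 2 that were higher in *Kdm1a* KD, with *Kif1c*, a transport kinesin that fell in *Irf2bp2* KD, as the contrast. Each is 300 bases of GRCm38.p6 from RefSeq, 5′ to 3′ on the strand of the gene, and capitals mark TTTGAA and CCAAT or their reverse complements TTCAAA and ATTGG.
Kif14 promoter, chr1:136467598-136467897, plus strand: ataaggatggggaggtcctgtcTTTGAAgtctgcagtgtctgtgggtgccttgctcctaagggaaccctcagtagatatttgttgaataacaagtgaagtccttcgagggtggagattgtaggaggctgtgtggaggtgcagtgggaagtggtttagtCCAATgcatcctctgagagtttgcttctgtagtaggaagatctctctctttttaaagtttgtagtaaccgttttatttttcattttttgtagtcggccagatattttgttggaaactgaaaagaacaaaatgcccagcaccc
Kif18b promoter, chr11:102925075-102925374, minus strand: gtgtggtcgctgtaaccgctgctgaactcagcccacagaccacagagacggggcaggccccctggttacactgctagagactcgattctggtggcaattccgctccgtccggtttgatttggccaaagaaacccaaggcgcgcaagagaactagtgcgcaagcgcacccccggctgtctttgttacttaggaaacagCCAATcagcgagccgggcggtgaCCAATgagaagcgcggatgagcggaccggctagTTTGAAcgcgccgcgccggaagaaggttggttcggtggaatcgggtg
Kifc1 promoter, chr17:33890584-33890883, minus strand: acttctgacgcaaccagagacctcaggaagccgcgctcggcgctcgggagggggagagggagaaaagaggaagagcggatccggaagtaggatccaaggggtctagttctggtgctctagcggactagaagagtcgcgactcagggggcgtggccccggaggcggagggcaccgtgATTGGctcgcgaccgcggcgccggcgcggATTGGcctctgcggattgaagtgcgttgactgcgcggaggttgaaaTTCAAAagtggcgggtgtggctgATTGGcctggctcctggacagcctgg
Kifc5b promoter, chr17:26916841-26917140, plus strand: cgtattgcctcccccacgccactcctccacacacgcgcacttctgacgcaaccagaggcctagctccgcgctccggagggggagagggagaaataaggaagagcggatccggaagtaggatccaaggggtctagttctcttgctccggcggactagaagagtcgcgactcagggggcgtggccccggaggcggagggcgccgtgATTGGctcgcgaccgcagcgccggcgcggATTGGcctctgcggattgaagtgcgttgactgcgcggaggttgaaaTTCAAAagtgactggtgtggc
Kif23 promoter, chr9:61946750-61947049, minus strand: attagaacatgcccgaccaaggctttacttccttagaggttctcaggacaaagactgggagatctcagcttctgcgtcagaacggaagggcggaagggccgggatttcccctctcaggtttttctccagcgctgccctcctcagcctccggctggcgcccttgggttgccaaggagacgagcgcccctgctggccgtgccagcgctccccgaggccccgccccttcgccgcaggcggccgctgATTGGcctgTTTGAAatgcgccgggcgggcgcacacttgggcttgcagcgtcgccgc
Kif20b promoter, chr19:34922108-34922407, plus strand: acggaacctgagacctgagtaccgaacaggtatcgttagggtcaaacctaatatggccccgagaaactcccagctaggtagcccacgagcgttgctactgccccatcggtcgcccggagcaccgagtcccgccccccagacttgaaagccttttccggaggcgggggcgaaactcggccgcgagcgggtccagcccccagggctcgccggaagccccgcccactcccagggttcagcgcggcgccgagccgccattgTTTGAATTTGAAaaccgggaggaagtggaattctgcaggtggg
Kif1c promoter, chr11:70700298-70700597, plus strand: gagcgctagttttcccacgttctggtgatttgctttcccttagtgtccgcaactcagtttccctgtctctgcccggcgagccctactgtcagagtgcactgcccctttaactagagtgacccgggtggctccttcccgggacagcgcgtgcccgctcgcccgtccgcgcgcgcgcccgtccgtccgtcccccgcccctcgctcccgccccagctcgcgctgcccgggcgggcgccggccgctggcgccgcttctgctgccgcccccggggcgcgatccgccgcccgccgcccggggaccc
*Kif18b*, *Kifc1*, *Kif23* and *Kif20b* carry the core 1 to 7 bases after the start, and *Kif20b* carries it as a tandem pair without CCAAT. *Kif14* carries its only core 228 bases before the start. The windows of *Kifc1* and *Kifc5b* share an unbroken run of 68 bases. The *Kif1c* window holds neither element. Mitotic kinesins with the core that were not called in *Irf2bp2* KD moved either way there. *Kif15* and *Kif20b* were at -0.29 and -0.27 on the log2 scale, *Kif11* and *Kif2c* at 0.12 and -0.01, and *Kif4*, *Kif22* and *Kif23* at 0.44, 0.25 and 0.45. Whether the element bears on these changes was not tested.

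Of the 41 genes, 36 passed the filter on low counts in at least 1 table, and the other 5 (*Kif1a*, *Kif2b*, *Kif12*, *Kif19a* and *Kif21a*) were too low to be tested in any. A call required an adjusted p no higher than 0.05 together with a log2 fold change of at least 0.5 in either direction. In the *Kdm1a* table, which has 1 control, a call instead required both KD libraries past that fold limit on the same side, with no p. With these rules, 17 of the 36 were called in no comparison, 15 in 1 and 4 in 2 (*Kif20b*, *Kif21b*, *Kif27* and *Kifc3*). The shares of kinesins called in 0, 1 and 2 comparisons (47.2%, 41.7% and 11.1%) lie beside 49.4%, 33.9% and 11.7% of the 12996 genes tested in at least 1 table. Because RNA came from whole cultures, fewer cells of a type and less RNA per cell cannot be told apart.

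**Figure D3:**
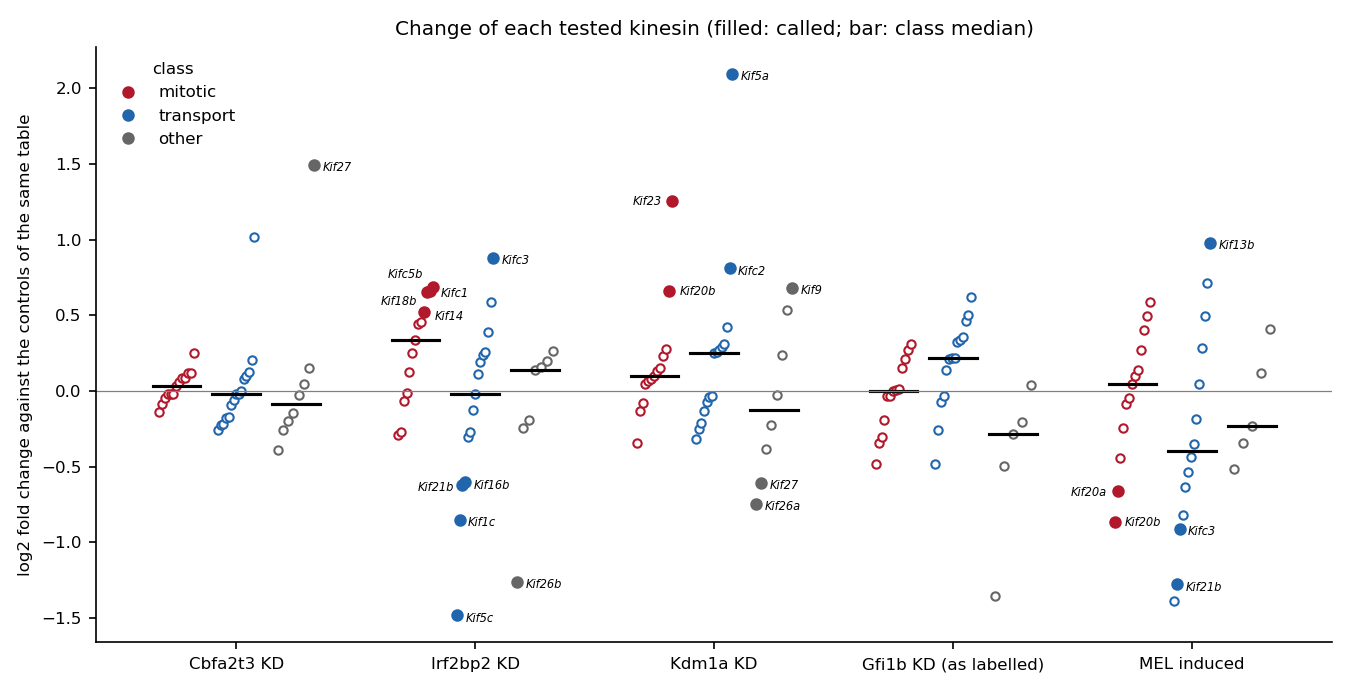
log2 fold change of each tested kinesin against the controls of the same table, with 1 point per gene, filled where the gene was called, and a bar at the class median. *Irf2bp2* KD shows 4 called mitotic kinesins above 0.5 and 4 called transport kinesins below -0.5. These count *Kifc1* and *Kifc5b*, which may share reads, and *Kif5c*, which rests on few reads. No kinesin was called in the libraries labelled *Gfi1b* KD.

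In *Irf2bp2* KD, kinesins were called in both directions. Of 35 tested, 5 rose and 5 fell, a share in either direction to be read against 22.5% of all 12329 genes tested (10.1% higher and 12.5% lower). All 4 called mitotic kinesins rose (of 13), whereas 4 of the 5 called transport kinesins fell (of 15). The replicates of this table lay close together, with a median SE of 0.0849 over the log2 fold changes of the 13 mitotic kinesins. The median log2 fold change was 0.34 over the mitotic and -0.02 over the transport class, beside -0.01 over all genes.

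Among the mitotic motors, *Kif18b*, which works at the plus ends of astral microtubules, went from 62.1 and 68.2 CPM in the controls to 98.7 and 106.1 CPM after KD. Its log2 fold change was 0.65 (SE 0.085, adjusted p = 9.61e-06, edgeR). *Kifc1* was at 85.1 and 88.6 CPM in the controls and at 142.1 and 132.3 CPM in the KD. Both KD libraries of each gene lay well above both controls, and the groups did not overlap in 30 of the 35 kinesins tested. For *Kifc1* the log2 fold change was 0.66 (SE 0.082, adjusted p = 5.78e-06, edgeR), and the *Kifc5b* row, which may share its reads, moved by 0.69 (SE 0.084, adjusted p = 4.65e-06, edgeR). *Kif14*, a cytokinesis motor that works with citron kinase and PRC1, went from 151.9 and 136.9 CPM to 207.9 and 207.1 CPM. This is a 1.44-fold rise (log2 0.52, SE 0.085, adjusted p = 8.74e-05, edgeR), close to the fold limit, and without the second control library it was 0.46 and no longer called.

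Other mitotic kinesins passed the p limit but not the fold limit. *Kif23* was at 77.6 and 77.2 CPM in the controls and at 103.4 and 108.6 CPM in the KD (log2 0.45, adjusted p = 0.000206, edgeR). *Kif4*, a chromosome motor that binds PRC1 at the midzone, was at 93.7 and 92.9 CPM against 126.3 and 127.3 CPM (log2 0.44, adjusted p = 0.000231, edgeR). *Kif20a* and *Kif22* differed by 0.34 and 0.25 on the log2 scale, with adjusted p of 0.00295 and 0.0160 (edgeR). In the other direction, *Kif15* was at 159.0 and 138.8 CPM in the controls and at 119.1 and 124.6 CPM in the KD (log2 -0.29, adjusted p = 0.0121, edgeR), and *Kif20b* differed by -0.27 (adjusted p = 0.0185, edgeR). The class therefore did not move as one. *Kif11*, *Kif2c* and *Kif18a* had log2 fold changes of 0.12, -0.01 and -0.07 with adjusted p of 0.275, 0.931 and 0.614 (edgeR).

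Transport kinesins moved in both directions. *Kifc3* was at 40.6 and 44.4 CPM in the controls and at 78.4 and 78.0 CPM in the KD, the largest rise among the kinesins called here (log2 0.88, SE 0.084, adjusted p = 2.92e-07, edgeR). *Kif1c*, which carries dense-core vesicles and other cargo, was at 55.0 and 58.5 CPM against 29.8 and 33.0 CPM. It fell by 0.85 on the log2 scale (SE 0.089, adjusted p = 7.59e-07, edgeR). No KD library overlapped a control for *Kifc3* or *Kif1c*, as was true of most kinesins tested in this comparison. *Kif21b* went from 176.1 and 166.7 CPM to 121.1 and 101.7 CPM (log2 -0.62, SE 0.092, adjusted p = 3.48e-05, edgeR). Without the second KD library it stood at -0.50, just short of the fold limit. *Kif16b*, a motor of early endosomes, went from 47.9 and 47.3 CPM to 32.4 and 30.2 CPM (log2 -0.61, SE 0.087, adjusted p = 2.40e-05, edgeR). *Kif5b* was at 179.0 and 163.7 CPM in the controls and at 223.7 and 225.5 CPM in the KD, below the fold limit (log2 0.39, adjusted p = 0.00112, edgeR).

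The remaining calls rest on few reads. *Kif5c* had 21 and 20 counts in the controls and 8 and 6 in the KD libraries (log2 -1.48, adjusted p = 0.0218, edgeR), and *Kif26b*, an atypical kinesin, had 21 and 19 counts against 8 and 8 (log2 -1.26, adjusted p = 0.0404, edgeR). DESeq2 did not call either (adjusted p = 0.129 and 0.192), and neither was called when any 1 library was left out.

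Genes that work with these motors were read from lists of 30 mitotic and 24 transport partners. In *Irf2bp2* KD 3 of 30 mitotic partners rose and 0 fell, beside 10.1% of all genes higher and 12.5% lower, so that the share that rose is close to that of all genes. They are *Cit*, the citron kinase that binds KIF14 (log2 0.61, adjusted p = 5.96e-05, edgeR), *Tacc3*, a spindle microtubule cross-linker (0.67, adjusted p = 6.05e-06, edgeR), and *Foxm1*, a transcription factor that acts through CHR promoters (0.51, adjusted p = 7.75e-05, edgeR). *Prc1*, *Racgap1* and *Aurkb*, midzone partners of KIF4, KIF23 and KIF20A, differed by 0.26, 0.31 and 0.32, under the fold limit. *Cenpe*, a kinetochore kinesin with another symbol, differed by -0.45 (adjusted p = 0.000861, edgeR). *Tpx2*, *Top2a* and *Mki67*, general markers of dividing cells, had log2 fold changes of 0.08, 0.04 and 0.14 and adjusted p of 0.475, 0.758 and 0.335 (edgeR).

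Of 23 transport partners tested, 6 rose and 0 fell, beside the same 10.1% and 12.5% of all genes. *Klc1* and *Klc2*, light chains that link kinesin-1 to cargo, rose by 0.61 and 0.53 on the log2 scale (adjusted p = 1.00e-05 and 0.000186, edgeR). *Trak2* and *Rhot2*, which couple kinesin-1 to mitochondria, rose by 1.13 and 0.55 (adjusted p = 9.34e-09 and 6.46e-05, edgeR). The dynein subunit *Dync1li2* and the dynein adaptor *Bicd2* rose by 0.59 and 0.60 (adjusted p = 2.67e-05 and 5.02e-05, edgeR). *Klc4* and *Kifap3*, the cargo subunit of kinesin-2, were at -0.02 and -0.13, with adjusted p of 0.903 and 0.242 (edgeR).

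The erythroid marker sum moved with this KD, from 1282 and 1348 CPM in the controls to 3481 and 3732 CPM, and the megakaryocyte marker sum from 364.0 and 415.7 CPM to 774.9 and 806.2 CPM. The 3 fibroblast markers summed to 6.02 and 5.40 CPM in the controls and to 2.79 and 2.75 CPM in the KD. The summed level of the 13 mitotic kinesins was 1502 and 1403 CPM in the controls and 1733 and 1753 CPM in the KD, and that of their 30 partners 9288 and 8316 CPM against 9702 and 9775 CPM. The part of maturation state or of other cells in the kinesin changes was not tested.

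In *Kdm1a* KD, the mitotic motors *Kif23* and *Kif20b* stood above the control, and the other 11 did not pass the fold limit. With 1 control library the calls described rest on no test, and required that each KD library lay at least 0.5 on the log2 scale to the same side of the control. By this rule 5 of 36 kinesins were higher and 2 lower, beside 22.9% of all 12628 genes in either direction (13.1% higher and 9.80% lower). The called genes were *Kif23* and *Kif20b* of the mitotic class, *Kif5a* and *Kifc2* of the transport class and *Kif9*, *Kif26a* and *Kif27* of the third. When edgeR was run on the 2 KD libraries and the single control, which is then assumed to vary like the KD libraries, it called all of these but *Kif9* and *Kif27*, beside 22.5% of all genes. The spread between control cultures is not measured in this table, so these calls describe the 3 libraries.

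*Kif23* measured 65.5 CPM without and 154.5 and 157.8 CPM with the hairpin, 2.38-fold higher (log2 1.25, with the KD libraries at 1.24 and 1.27). In the 8 controls of the other tables, which were normalized separately, its level ran from 67.0 to 129.1 CPM, with the *Kdm1a* control just below them. *Kif20b* was at 133.8 CPM against 206.9 and 215.8 CPM, 1.58-fold higher. The 8 controls of the other tables ran from 128.7 to 263.5 CPM for this gene, so that its KD values lie within their range. The other 11 mitotic kinesins differed by less, between -0.34 for *Kif14* (120.8 CPM against 98.5 and 92.0 CPM) and 0.28 for *Kif2c* on the log2 scale. Of 30 mitotic partners 1 was called higher and 1 lower, beside 22.9% of all genes in either direction. Of the partners of *Kif23* in cytokinesis, *Ect2*, the exchange factor that centralspindlin recruits, was higher by 0.56 and called, *Prc1* was higher by 0.47 and *Racgap1* by 0.14, and neither was called. *Mybl2*, which encodes B-MYB, was lower by 0.66 and called.

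*Kif5a*, the heavy chain of kinesin-1 that neurons use, had 70 counts (1.43 CPM) in the control, and 394 and 245 counts (7.27 and 5.36 CPM) after KD, 4.27-fold higher. It was the largest difference of any kinesin in this table. Per length, the KD mean of *Kif5a* was 1.19 RPKM and that of *Kif5b*, the ubiquitous heavy chain, 25 RPKM. *Kifc2*, a minus-end motor found mostly in neurons, was at 7.79 CPM against 14 and 13.4 CPM. *Klc4*, a kinesin-1 light chain, *Mapk8ip1*, a kinesin-1 cargo adaptor, and *Dync1li2* were higher by 0.75, 0.65 and 0.53 on the log2 scale and were the 3 called of 23 transport partners, beside 13.1% of all genes higher. *Kif26a*, an atypical kinesin without motor activity, was lower, at 24.7 CPM against 15.6 and 13.9 CPM. *Kif9* (10 counts against 18 and 17) and *Kif27* (19 against 12 and 12) rest on few reads. In this table the erythroid marker sum was lower after KD, 1647 CPM against 1194 and 1199 CPM, and the mitotic kinesin sum was 1285 CPM against 1478 and 1485 CPM. The 3 fibroblast markers summed to 6.28 CPM without and 24.3 and 21.2 CPM with the hairpin, and 2 of them were called higher (*Pdgfrb*, 3.70-fold, and *Col1a1*, 2.09-fold). *Cd3g* of the T cell, *Cd79a* of the B cell and *Cd68* of the macrophage markers were also called higher, at mean levels of 1.06, 0.587 and 2.90 CPM after KD. The part of these shifts in the kinesin values was not tested.

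**Figure D4:**
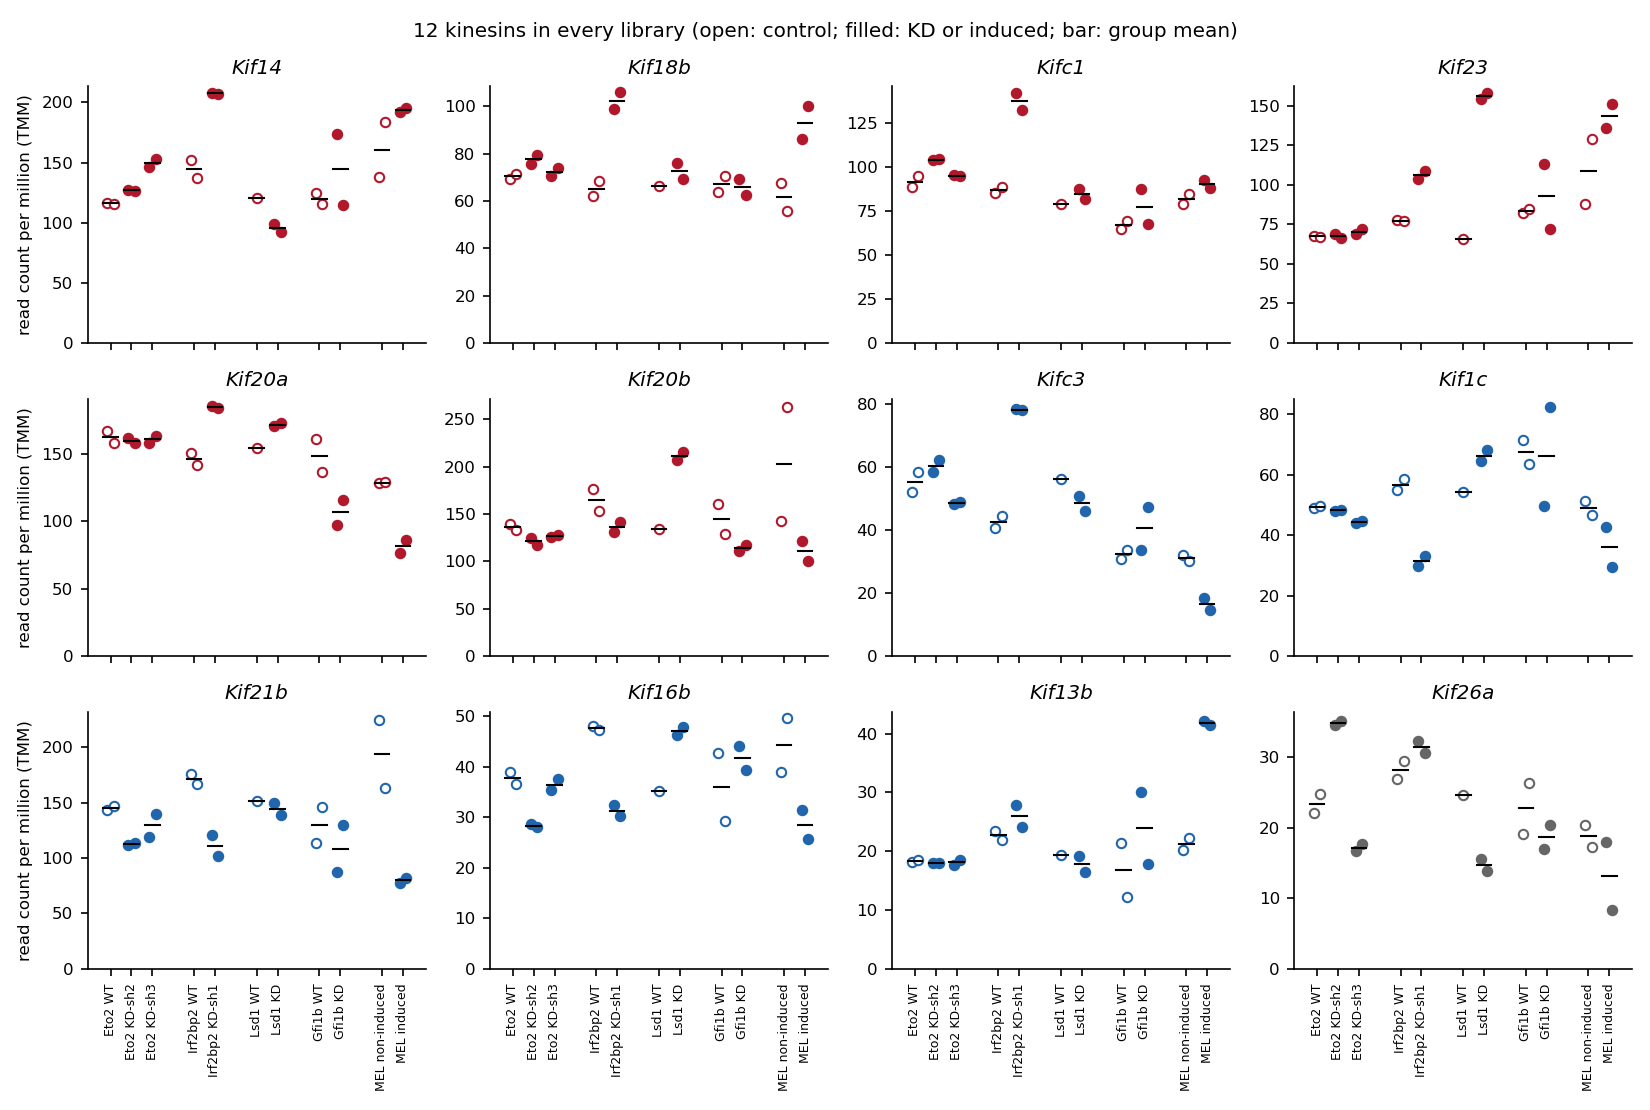
CPM (TMM-normalized within a table) of 12 kinesins in each of the 21 libraries, with open points for controls, filled points for KD or induced libraries and a bar at the group mean. *Kif23* stands out in *Kdm1a* KD (154.5 and 157.8 CPM), *Kifc1* and *Kif1c* in *Irf2bp2* KD, and *Kif21b* and *Kif13b* in induced MEL cells; levels are set side by side across tables without a test.

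On MEL differentiation, 11 of 13 mitotic kinesins were not called. Of 32 kinesins tested, 1 rose and 4 fell, beside 27.2% of all 11713 genes in either direction (12.4% higher and 14.8% lower). The median SE over the 13 mitotic kinesins was 0.245, against 0.0849 in the *Irf2bp2* table, so that a difference of the size called there could be missed here. The median log2 fold change was 0.05 over the 13 mitotic kinesins, 2 of which fell, and -0.40 over the 14 transport kinesins tested, of which 1 rose and 2 fell, while over all genes it was -0.02.

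*Kif21b* was at 224.7 and 163.4 CPM in the non-induced and at 77.7 and 82.3 CPM in the induced libraries. It fell by 1.28 on the log2 scale (SE 0.25, adjusted p = 0.00267, edgeR) and was the only kinesin called whichever library was left out. *Kifc3* was at 32.1 and 30.0 CPM against 18.5 and 14.5 CPM (log2 -0.91, SE 0.30, adjusted p = 0.0345, edgeR). *Kif13b*, a motor for signalling and membrane cargo, went the other way, from 20.3 and 22.2 CPM to 42.2 and 41.5 CPM (log2 0.98, SE 0.27, adjusted p = 0.0177, edgeR). The induced libraries of all 3 genes lay outside the range of the non-induced, which held for 21 of the 32 kinesins tested. *Kif13a*, the paralogue of *Kif13b*, was at 6.38 and 4.04 CPM against 1.87 and 2.13 CPM, which did not pass the p limit (log2 -1.39, adjusted p = 0.0650, edgeR). It passed with no filter on low counts (adjusted p = 0.0349, edgeR) and with at least 10 counts in every library (adjusted p = 0.0329, edgeR).

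In the mitotic class *Kif20a* was at 128.4 and 129.4 CPM in the non-induced and at 76.6 and 86.1 CPM in the induced libraries (log2 -0.66, SE 0.23, adjusted p = 0.0486, edgeR), a call that was lost when any 1 library was left out. *Kif20b* was at 142.2 and 263.5 CPM against 121.9 and 100.4 CPM (log2 -0.87, SE 0.29, adjusted p = 0.0404, edgeR). Its non-induced libraries lay far apart, and without the second of them the log2 fold change was -0.35 (adjusted p = 0.416, edgeR). The other 11 were not called. They ranged from -0.45 for *Kif15* to 0.59 for *Kif18b*, which was at 67.6 and 55.9 CPM against 86.0 and 100.2 CPM (adjusted p = 0.0856, edgeR), and *Kif11*, *Kif14* and *Kif23* were at 0.05, 0.27 and 0.41.

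Of 30 mitotic partners 1 was called, beside 14.8% of all genes lower and 12.4% higher. *Mybl2* was at a mean of 123.5 CPM in the non-induced and 41.0 CPM in the induced libraries (log2 -1.59, adjusted p = 0.00439, edgeR), while *Top2a* and *Mki67* differed by -0.42 and 0.11 (adjusted p = 0.249 and 0.810, edgeR). Of 23 transport partners 5 rose and 0 fell, beside the same shares of all genes. They were *Klc4* (0.99), *Trak2* (1.02), *Rhot2* (0.96), *Mapk8ip3*, an adaptor between kinesin-1, dynein and cargo (0.90), and *Dync1li2* (0.98), with adjusted p of 0.00842 to 0.0295 (edgeR). The erythroid marker sum was 2028 and 1915 CPM in the non-induced and 4307 and 3555 CPM in the induced libraries. The mitotic kinesin sum was 1360 and 1780 CPM against 1494 and 1492 CPM, so that the induced libraries lay between the non-induced. The megakaryocyte marker sum was 516.9 and 374.9 CPM in the non-induced and 1287 and 1158 CPM in the induced libraries, and *Itga2b* among them rose by 2.07 on the log2 scale (adjusted p = 0.000264, edgeR). The 3 fibroblast markers, summing to 23.6 and 22.3 CPM in the non-induced and to 10.7 and 3.47 CPM in the induced libraries, also moved with induction. The part of any of these in the changes was not tested.

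In *Cbfa2t3* KD, no mitotic kinesin was called. Of 36 kinesins tested, 1 was called, beside 5.74% of all 12537 genes (2.99% higher and 2.75% lower), and the 13 mitotic kinesins lay between -0.14 (*Kif20b*) and 0.25 (*Kif14*) on the log2 scale. At an unadjusted p under 0.05 there were 8 of 36 kinesins (22.2%), against 26.2% of all genes. *Kif14* was at 116.3 and 115.7 CPM in the controls, at 127.5 and 126.3 CPM with sh2 and at 146.2 and 153.0 CPM with sh3 (adjusted p = 0.101 over both hairpins, edgeR). *Kifc1* was at 88.7 and 94.7 CPM in the controls and between 94.9 and 104.3 CPM in the KD libraries (log2 0.12, adjusted p = 0.303, edgeR). None of the 30 mitotic and 23 transport partners tested was called by edgeR, and *Cit* came nearest (log2 0.47, adjusted p = 0.00295). The erythroid marker sum was 1579 and 1588 CPM in the controls and 2159 to 2539 CPM in the KD libraries. The megakaryocyte marker sum was 411.7 and 398.8 CPM in the controls and 473.1 to 586.5 CPM in the KD, with *Gp9* called higher. The fibroblast marker sum was 6.38 and 8.30 CPM against 2.10 to 5.76 CPM. The part of these in the kinesin values was not tested.

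The 1 called gene was *Kif27*, a ciliary kinesin, with 9 and 14 counts in the controls, 23 and 20 with sh2 and 35 and 48 with sh3. It rose by 1.5 on the log2 scale (SE 0.40, adjusted p = 0.0453, edgeR) at a level of 0.177 to 0.831 CPM. The call was lost without either control library or either sh3 library (adjusted p between 0.0752 and 0.325, edgeR). It was also lost with the replicate number as a block (adjusted p = 0.0771, edgeR), which leaves 0 called kinesins. *Kif27* was not called with sh2 alone (log2 1.00, adjusted p = 0.0707, edgeR) but was with sh3 alone (log2 1.85, adjusted p = 0.00152, edgeR).

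The hairpins differed in 1 kinesin past both limits, beside 3.71% of all genes. *Kif26a* was at 22.1 and 24.8 CPM in the controls, at 34.6 and 35.1 CPM with sh2 and at 16.7 and 17.7 CPM with sh3. The difference of sh3 minus sh2 was -1.02 on the log2 scale (SE 0.081, adjusted p = 3.3e-05, edgeR), and the hairpins lay on opposite sides of the controls. With the replicate number as a block, *Kif27* also differed between the hairpins (sh3 minus sh2, log2 0.84, adjusted p = 0.0461, edgeR). In the joint comparison, which averages over them, *Kif26a* was at 0.15 (adjusted p = 0.811, edgeR).

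No kinesin was called in the libraries labelled *Gfi1b* KD, where edgeR called 0 of 32 kinesins, beside 0% of all 11190 genes, at a median SE of 0.226 over the mitotic class. At an unadjusted p under 0.05 there were 0 of 32 kinesins and 7.01% of all genes, and DESeq2 called 59 genes and 0 kinesins. The libraries labelled KD differed from each other. *Kif14* was at 124.4 and 115.3 CPM in the controls and at 173.9 and 114.8 CPM in the libraries labelled KD, and *Kif23* at 82.4 and 85.0 CPM against 113.3 and 72.0 CPM. For both genes the library labelled KD replicate 1 lay above and replicate 2 at or below the controls.

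Without the library labelled KD replicate 1, 2 kinesins were lower and 0 higher, beside 3.48% of all genes. They were *Kif5b* (log2 -0.88, adjusted p = 1.76e-05, edgeR) and *Kif15* (-0.58, adjusted p = 0.0250, edgeR). Without the library labelled KD replicate 2, 5 kinesins were higher and 3 lower, beside 26.7% of all genes. The higher ones were *Kif3a* (1.05), *Kif13b* (0.80), *Kif1b*, a mitochondrial and vesicle motor (0.67), *Kifc5b* (0.54) and *Kif14* (0.52), and the lower ones *Kif7* (-0.67), *Kif20a* (-0.63) and *Kif21b* (-0.59). Each of these fits has a single library labelled KD, which is assumed to vary like the controls. The marker sums of these libraries also differed. In the library labelled KD replicate 1 erythroid markers summed to 3311 CPM, against 1334 and 1446 CPM in the controls, and megakaryocyte markers to 883.5 CPM against 221.1 and 284.0 CPM. In the library labelled KD replicate 2 these sums were 1387 and 172.3 CPM, while fibroblast markers summed to 44.3 CPM, against 19.3 and 17.1 CPM in the controls, and T cell markers to 1.70 CPM against 0.0685 and 0 CPM. The part of these in the kinesin values was not tested.

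*Kif20b* and *Kif20a* had no constant direction over the tables. *Kif20a* had log2 fold changes of -0.02 in *Cbfa2t3* KD, 0.34 in *Irf2bp2* KD, 0.15 in *Kdm1a* KD, -0.48 in the libraries labelled *Gfi1b* KD and -0.66 on differentiation. *Kif20b* was at -0.14, -0.27, 0.66, -0.34 and -0.87. *Kifc3* was called in opposite directions, higher in *Irf2bp2* KD and lower on differentiation, while *Kif21b* was lower in both. *Kif27* was called higher in *Cbfa2t3* KD and lower in *Kdm1a* KD (log2 -0.61), on few reads in each.

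ETO2 and IRF2BP2 sites were assigned to the single nearest protein-coding gene within 1 Mb. The annotation of mm9 holds 42 kinesin genes by the same rule on symbols, the 41 described so far and *Kif6*, which has no row in the RNA-Seq tables used here. Of these 42, 16 (38.1%) were nearest to at least 1 site, beside 29.2% of all 22238 genes, and 7 (16.7%) had a site within 5 kb of the start, beside 15.5%. The mitotic class had 5 of 13 genes with a site and the transport class 7 of 17. The kinesin genes were nearest to 33 sites in all.

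*Kifc3* had 3 sites, 2 of them shared by ETO2 and IRF2BP2 upstream of the start (chr8:97680001-97680474, 23.5-fold over the IgG control, and chr8:97673163-97674461, 4.62-fold) and 1 IRF2BP2-only site in an intron (chr8:97664193-97665023, 6.50-fold). *Kifc5b* had an IRF2BP2-only site 280 bases upstream of its start (chr17:27053338-27054321, 9.67-fold) and *Kif16b* another 1612 bases upstream (chr2:142728556-142729515, 4.71-fold). *Kif21b* had a shared site 28106 bases upstream (chr1:137999187-138000464, 9.60-fold) and an IRF2BP2-only site in an intron (chr1:138034588-138035593, 4-fold). *Kif23* had a shared site in an intron, 5481 bases into the gene (chr9:61788619-61789547, 6.4-fold), and *Kif20b* had 5 sites, of which a shared one lay 16735 bases upstream (chr19:34979432-34980354, 6.4-fold). *Kif27* had an ETO2-only site in an intron (chr13:58416118-58416899, 7.71-fold). *Kif2c*, which was not called in any table, had 4 IRF2BP2-only sites upstream, 10.8 to 25 times the IgG control. *Kif18b*, *Kifc1*, *Kif1c* and *Kif5c*, called in *Irf2bp2* KD, had none.

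In *Irf2bp2* KD 6 of the 10 called kinesins (60.0%) and 8 of the 25 not called (32.0%) had an IRF2BP2 site, beside 48.4% of called and 39.7% of not called genes overall. With 10 called kinesins this is a description and no test was made. The GATA motif AGATAA was searched on both strands in 151 bases around the centre of each site. It occurred in 52.9% of shared, 51.2% of ETO2-only, 19.1% of IRF2BP2-only and 30.4% of all sites. Most of the 33 kinesin sites held no AGATAA, nor did most of the shared sites among them. The windows of 3 kinesin sites with the motif are printed because their genes were called in *Kdm1a* KD (*Kif23* and *Kif20b*) or in both *Irf2bp2* KD and differentiation (*Kif21b*). They are read on the plus strand of mm9, and capitals mark AGATAA or its reverse complement TTATCT.
Kif23 site, chr9:61789050-61789200, plus strand: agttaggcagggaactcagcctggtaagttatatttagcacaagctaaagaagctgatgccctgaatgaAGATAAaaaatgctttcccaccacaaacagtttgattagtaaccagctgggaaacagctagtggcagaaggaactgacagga
Kif20b site, chr19:34980038-34980188, plus strand: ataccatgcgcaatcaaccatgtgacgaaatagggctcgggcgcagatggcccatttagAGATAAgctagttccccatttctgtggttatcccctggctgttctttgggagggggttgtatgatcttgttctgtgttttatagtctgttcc
Kif21b site, chr1:138034851-138035001, plus strand: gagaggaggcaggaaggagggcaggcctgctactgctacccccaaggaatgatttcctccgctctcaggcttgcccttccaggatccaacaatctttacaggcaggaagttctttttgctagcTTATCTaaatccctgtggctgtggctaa
The *Kif23* and *Kif20b* windows come from shared sites and the *Kif21b* window from an IRF2BP2-only site. The shared *Kifc3* and *Kif21b* sites hold no AGATAA in their windows.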

How the data were processed

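RNA-Seq was analysed in 21 MEL libraries and ETO2 and IRF2BP2 sites in 1 list. The authors mapped reads with TopHat2 to mm9 and deposited raw read counts and RPKM values per RefSeq gene, obtained with rpkmforgenes, in 1 table for each of the 5 comparisons. The deposited tables also hold the authors' DESeq2 log2 fold changes and p-values, which were not used. The authors called sites with 3 peak callers against IgG, and the deposited list gives a fold enrichment (a ratio) and a p-value for each. In that list 4 columns of read numbers match no single sample and were not used. Whether the counting used strand is not given in the sources used here.

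Counts were tested over all genes of a table with edgeR 4.0.16 in R 4.3.3 (TMM, filterByExpr, quasi-likelihood F test, Benjamini-Hochberg adjustment) at an adjusted p of 0.05 and an absolute log2 fold change of 0.5. Folds in *Kdm1a* KD used TMM log2 CPM with a prior count of 2. RPKM values served for levels between genes only. Site positions were compared with the GENCODE annotation of mm9, and promoters came from RefSeq GRCm38.p6, with no coordinate converted between builds. Shares, sequences and plots were made with pandas 2.3.3, numpy 2.4.6 and matplotlib 3.10.9 under Python 3.11.15. The test was checked on simulated counts. In the *Cbfa2t3* table the deviations of same-numbered libraries from their group means correlated at 0.118 to 0.252 over the 3 pairs of groups. The labels name no shared culture, so whether the numbers mark a pairing is not known. The main fits used no block, and the fit with the replicate number as a block is given where it changes a call.

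Named were kinesins called in at least 1 comparison, all mitotic kinesins, the 3 highest transport kinesins and a list of partner genes. Others, such as the lowest and highest members and those of the single-library fits, were chosen after their values were seen. The members and lists were chosen with earlier results of these data known. Alternatives were the size factors of DESeq2, DESeq2 1.42.0, other filters, no fold limit, unadjusted p, the replicate number as a block, each hairpin alone, each library left out, and a shorter distance or a higher enrichment for sites. Libraries held 9929311 to 57684583 reads, and replicates differed by more than counting noise (chi-square per degree of freedom 8.32 to 92.8), so errors cover the spread between these samples only.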

Additional observations from a re-analysis of the deposited data

Results flagged for a closer look

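The hairpins against *Cbfa2t3* were tested against each other (sh3 minus sh2) in 36 kinesins, and 4 differed at an adjusted p of 0.05 or less by edgeR, beside 13.7% of all genes. *Kif26a* had the largest difference, -1.02 on the log2 scale (adjusted p = 3.3e-05, edgeR), and it was higher than the controls with sh2 (log2 0.57, adjusted p = 0.000507, edgeR) and lower with sh3 (-0.45, adjusted p = 0.00224, edgeR). *Kif16b* differed by 0.36 (adjusted p = 0.00706, edgeR), with 38.8 and 36.5 CPM in the controls, 28.6 and 28.0 CPM with sh2 and 35.3 and 37.5 CPM with sh3. *Kifc3* differed by -0.31 (adjusted p = 0.0136, edgeR), with 58.4 and 62.1 CPM for sh2 and 48.3 and 48.8 CPM for sh3. *Kif14* differed by 0.24 (adjusted p = 0.0131, edgeR). In each of these 4 genes the libraries of the hairpins did not overlap. This adds no support, since the genes were picked on the same values. *Cbfa2t3* itself was at 202.1 and 243.5 CPM with sh2 and at 123.1 and 145.3 CPM with sh3, and the part of the depth of the KD in these differences was not tested.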

How the results depend on the processing

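The calls of the *Cbfa2t3*, *Irf2bp2*, *Kdm1a* and differentiation tables gave 23 gene results. None changed its direction over 194 alternatives, of which 158 kept their side of the limits and 36 lost the call, and 12 of the 23 never lost it: *Kif18b*, *Kifc1*, *Kifc5b*, *Kifc3*, *Kif1c* and *Kif16b* in *Irf2bp2* KD, *Kif23*, *Kif20b*, *Kif5a*, *Kifc2* and *Kif26a* in *Kdm1a* KD and *Kif21b* on differentiation. In *Cbfa2t3* KD the count of called kinesins was 0 with at least 10 counts in every library, 0 with the replicate number as a block, 2 with unadjusted p (beside 5.59%, 5.04% and 7.94% of all genes) and 0 to 1 with 1 library left out, beside 2.19 to 6.39% of all genes (2.19% and 2.82% without a control library). In *Irf2bp2* KD it was 20 of 35 without a fold limit, beside 47.1% of all genes, and 7 to 9 with 1 library left out, beside 20.2 to 24.0%. In the libraries labelled *Gfi1b* KD it ran from 0 to 8 with 1 library left out, and on differentiation it was 9 with unadjusted p (39.3% of all genes) and 1 to 5 with 1 library left out. Differentiation counts fell to 2 without either non-induced library and to 1 without the second induced library, beside 13.4%, 12.5% and 14.7% of all genes. Between the hairpins it was 2 with unadjusted p and 2 with the block (5.37% and 4.63% of all genes). With sites at or above the median enrichment, 10 kinesin genes (23.8%) had a site, beside 18.9% of all genes, and within 100 kb 14 (33.3%), beside 28.1%. Deviations of same-numbered samples correlated at 0.0251 in *Irf2bp2* KD, 0.00153 in the *Gfi1b* table and 0.196 on differentiation, the last within the range of the *Cbfa2t3* table. Under the block the counts were 11 in *Irf2bp2* KD, 0 in the *Gfi1b* table and 6 on differentiation, beside 23.0%, 0% and 33.4% of all genes. The block added *Kif5a* in *Irf2bp2* KD (log2 0.60, adjusted p = 0.0127, edgeR) and *Kif3a* on differentiation (log2 0.76, adjusted p = 0.0341, edgeR). Depth limits *Kif5c*, *Kif26b*, *Kif27* and *Kif9*, each with under 50 counts in any library of its called comparison.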
